A study of Mus musculus with 6 samples.

Results

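The genes described here make fatty acids, esterify them into triglyceride and wax esters, and store or release the lipid. They are 34 mouse genes, chosen by name for these functions and followed by Ensembl identifier through the deposited values of 55487 genes. The values are FPKM, that is, fragments scaled to transcript length and to the size of the library. All 34 were found. A test was run on 28 of them, those with 3 or more of the 6 libraries at an FPKM of 1 or above. The libraries come from newborn epidermis, 3 labelled Znf750_cKO, where cKO usually denotes a conditional knockout, and 3 labelled Control, all from mice at postnatal day 0. Back skin was held in cold dispase, and the epidermis was peeled off and dissociated with trypsin before RNA was taken. The labels give no Cre driver, allele design, strain or sex for either group, and no cell sort. They do not say whether each library is a separate pup, so p-values measure the spread between libraries, which may be technical.

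In lipid synthesis, citrate leaves the mitochondrion and is cut to acetyl-CoA, which is carboxylated and built into palmitate. Desaturases then add double bonds, acyl-CoA synthetases activate the chains, and a series of acyltransferases and a phosphatase load them onto glycerol until triglyceride forms. Perilipins coat the droplets that hold it, and a chain of lipases empties them. In epidermis these chains feed the ceramides and other lipids of the barrier, while sebaceous glands, which are attached to the hair follicles, use them for triglyceride and wax esters.

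The targeted gene, whose mouse symbol is Zfp750 (ENSMUSG00000039238), stood at 0.99, 0.83 and 1.47 FPKM in Znf750_cKO libraries, against 44.8, 32.0 and 34.9 FPKM in Control libraries (log2 change -4.19, SE 0.17, limma adjusted p = 4.6e-05). Steps left by single reads in the FPKM values of low genes placed the depth at an estimated 23000000 to 35300000 reads in Znf750_cKO libraries and 21400000 to 28300000 reads in Control libraries. The keratinocyte markers Krt5, Krt14, Krt1 and Krt10 were among the most abundant of the markers read, the lowest value being 5073 FPKM, and none of the 7 keratinocyte markers passed. Of all 13688 genes tested, 577 changed at a limma adjusted p under 0.05 (4.22%). Among these, 152 were higher in Znf750_cKO (1.11%) and 425 were lower (3.1%). With the replicate number as a block 2.86% changed, and leaving out any 1 library left between 100 and 356 genes. With median-ratio scaling 258 rose and 295 fell, and with quantile normalization 201 and 218. Znf750_cKO lay below Control without overlap in 19.7% of tested genes and above it in 8.28%.

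The sequences before the start of 4 genes are shown because their groups of libraries lay apart in opposite directions. Plin2, which passed the test, and Awat1 were lower in every Znf750_cKO library, and Acsl3 and Fasn were higher. Each line gives the 250 bases before the start that RefSeq annotates on GRCm38.p6, from 5′ to 3′ on the gene's strand. The windows are chr4:86670060-86670309 on the minus strand for Plin2, chrX:100571997-100572246 on the plus strand for Awat1, chr1:78657575-78657824 on the plus strand for Acsl3 and chr11:120824548-120824797 on the minus strand for Fasn. Capitals mark CCNNAGGC, read on either strand, a motif described for human ZNF750.
Plin2 promoter: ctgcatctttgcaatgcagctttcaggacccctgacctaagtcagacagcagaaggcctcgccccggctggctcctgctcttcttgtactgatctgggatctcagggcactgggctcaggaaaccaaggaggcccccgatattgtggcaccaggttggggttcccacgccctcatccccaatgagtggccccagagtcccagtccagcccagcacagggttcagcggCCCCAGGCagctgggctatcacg
Awat1 promoter: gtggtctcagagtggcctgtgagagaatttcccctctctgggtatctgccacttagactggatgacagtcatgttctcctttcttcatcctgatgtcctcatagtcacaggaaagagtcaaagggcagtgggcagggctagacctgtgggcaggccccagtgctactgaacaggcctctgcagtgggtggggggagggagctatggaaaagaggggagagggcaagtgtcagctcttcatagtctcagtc
Acsl3 promoter: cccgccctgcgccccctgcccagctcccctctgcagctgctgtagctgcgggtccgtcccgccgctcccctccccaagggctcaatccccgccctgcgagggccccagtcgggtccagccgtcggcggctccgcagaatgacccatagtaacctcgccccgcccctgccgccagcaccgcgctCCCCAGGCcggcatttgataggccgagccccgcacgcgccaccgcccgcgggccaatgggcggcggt
Fasn promoter: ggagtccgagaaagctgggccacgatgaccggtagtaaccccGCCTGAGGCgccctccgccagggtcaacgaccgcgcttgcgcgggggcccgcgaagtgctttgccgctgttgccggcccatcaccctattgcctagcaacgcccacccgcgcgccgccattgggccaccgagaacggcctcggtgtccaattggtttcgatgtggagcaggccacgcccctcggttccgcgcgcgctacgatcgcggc
The match began 23 bases before the start in Plin2, 67 bases before it in Acsl3, and 208 and 207 bases before it in Fasn, where a match on each strand overlapped. No match to these letters lay in the Awat1 window. RefSeq windows were found for 29 of the 34 genes, 42 windows in all, with more than 1 for some genes. None was found for Dgat1, Dgat2, Fads1, Scd1 and Scd2. Of the 42 windows, 19 (45.2%), from 17 genes, held the motif, against 20.4% of all 32851 windows. The windows of the lipid genes were also richer in G and C, with a median of 62.2% against 52.4% over all windows. A sterol response element, TCACNCCAC on either strand, lay in 2 windows, 1 each of Acsl1 and Mlxipl, and in 1.05% of all windows. The direct repeat bound by PPAR factors, AGGTCA and again AGGTCA with 1 base between them on either strand, lay in 0 windows of these genes and in 0.0335% of all windows.

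**Figure D1:**
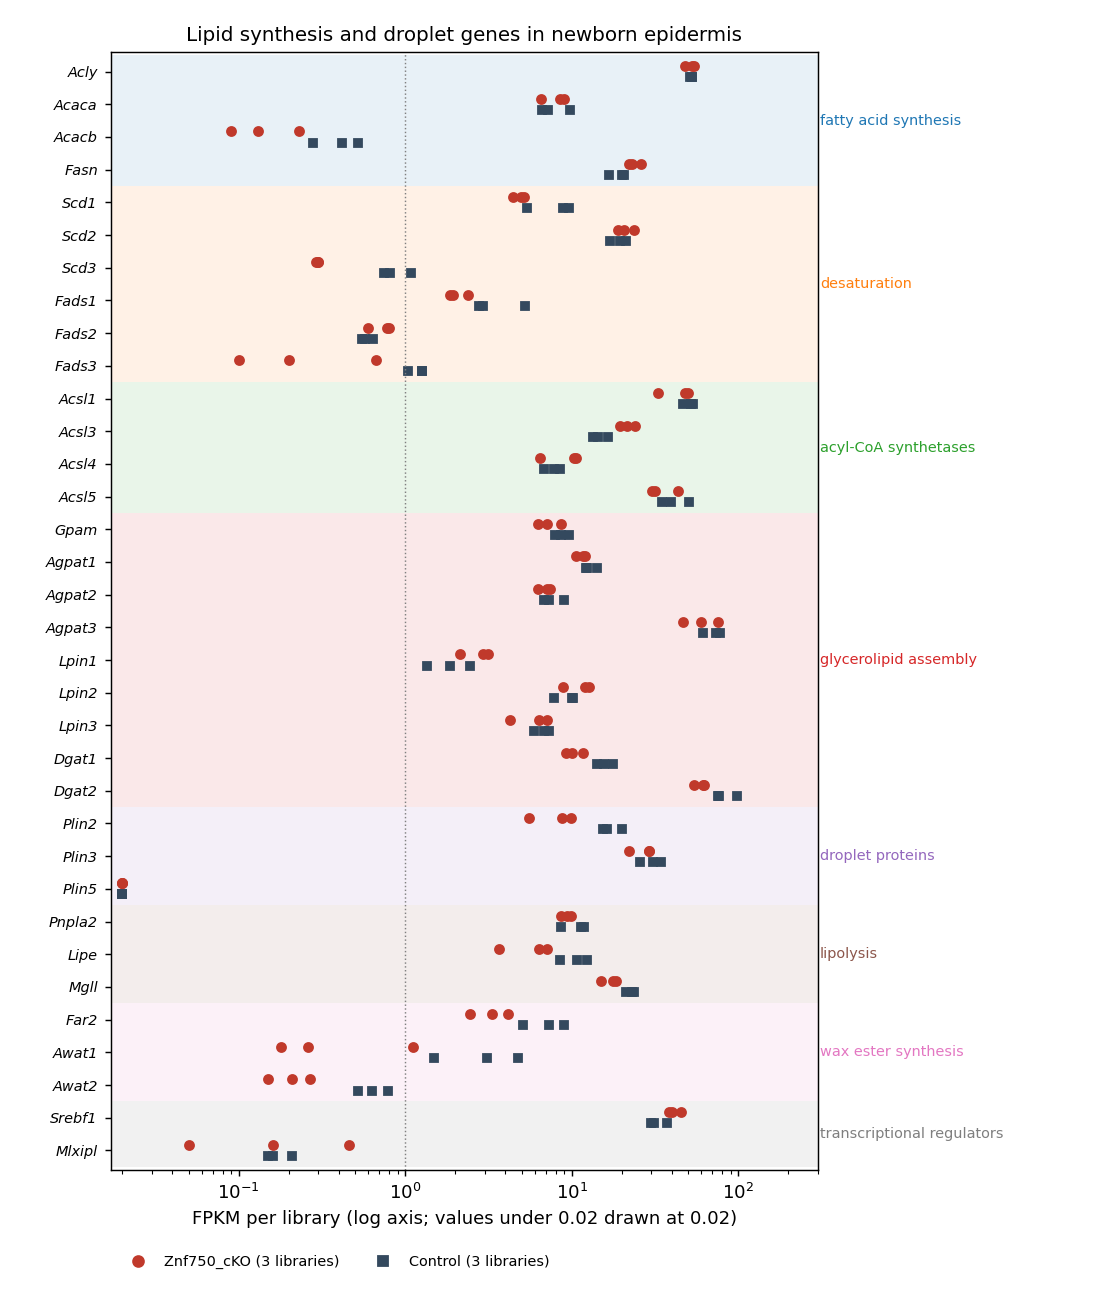
FPKM of the 34 lipid genes in each library on a log axis, with Znf750_cKO libraries as circles above and Control libraries as squares below in each row, shaded by step. The groups overlap in 14 of the 28 tested genes, while Plin2, Dgat1, Dgat2, Lipe, Mgll and the 3 wax ester genes have every Znf750_cKO library left of every Control library. The dotted line marks an FPKM of 1.

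Of the 28 tested lipid genes, 1 fell, 0 rose and 27 did not pass, a called share of 3.57% that lies near the 4.22% of all tested genes. The gene that fell was Plin2, a droplet coat protein. With the block none passed. The count was also 0 without Znf750_cKO replicate 1, Control replicate 1 or Control replicate 2, and it was 2 (Scd1 and Awat1, both lower) without Control replicate 3. At an unadjusted p under 0.05 there were 10 lower genes and 3 higher ones, beside 15.3% of all tested genes lower and 5.94% higher. The median log2 change of the 28 was -0.21, with 20 negative, beside a median of -0.08 over all tested genes, of which 62.2% were negative. The groups did not overlap in 14 of the 28 (50%, with Znf750_cKO lower in 11 and higher in 3), against 28% of all tested genes. Fads3 passed the filter on low values through the Control libraries alone, so these counts describe the genes and are not support for a shared change. Summed over all 34 genes, FPKM came to 515, 535 and 481 in Znf750_cKO libraries and to 570, 598 and 574 in Control libraries.

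**Figure D2:**
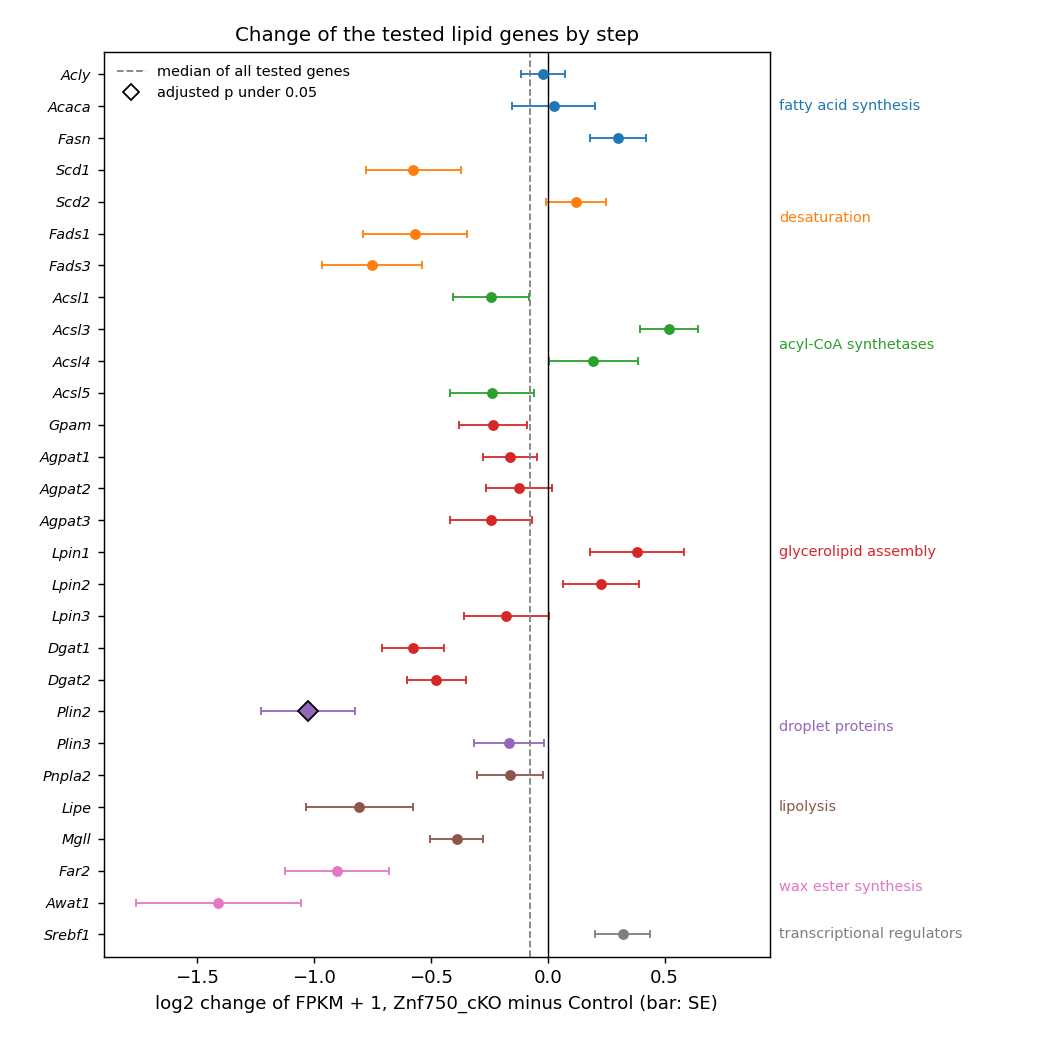
Log2 change of FPKM + 1 (Znf750_cKO minus Control) for the 28 tested lipid genes, grouped by step, with bars of 1 SE. The diamond marks Plin2, the gene past the adjusted threshold, at -1.03, and the dashed line is the median of all tested genes at -0.08.

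None of the tested enzymes that build palmitate passed. Acly, which makes cytosolic acetyl-CoA from citrate and is the most abundant of the step, had 54.5, 52.5 and 47.7 FPKM in Znf750_cKO libraries, against 52.6, 52.6 and 51.5 FPKM in Control libraries. These values overlapped, and the log2 change was -0.02 (SE 0.09, limma adjusted p = 0.94). Acaca, the main acetyl-CoA carboxylase for synthesis, averaged 7.98 ± 1.28 FPKM in Znf750_cKO and 7.87 ± 1.73 FPKM in Control (SD, n = 3 each), although 23.7% of the 100-base windows of its transcripts also occur in those of another gene, mainly Gm5182. Fasn, the fatty acid synthase, had 22.1, 23.1 and 26.2 FPKM in Znf750_cKO libraries and 20.2, 20.5 and 16.8 FPKM in Control libraries. Every Znf750_cKO library lay above every Control library, at 1.24 times the Control mean, and the difference did not pass (log2 change 0.30, SE 0.12, limma adjusted p = 0.20). Acacb, the carboxylase whose product also restrains mitochondrial fatty acid uptake, was below 1 FPKM in all libraries, with 0.23, 0.13 and 0.09 FPKM in Znf750_cKO and 0.52, 0.28 and 0.42 FPKM in Control. It was too low to test in the fit, and its groups did not overlap (exact two-sided permutation p = 0.10, the smallest that 3 libraries against 3 allow).

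Among the stearoyl-CoA desaturases, which turn saturated chains into monounsaturated ones, neither tested member passed. Scd2, the most abundant, had 18.8, 20.7 and 23.6 FPKM in Znf750_cKO libraries and 19.6, 16.99 and 21.2 FPKM in Control libraries, with overlapping groups (log2 change 0.12, limma adjusted p = 0.65). Scd1, known from liver and sebaceous gland, had 4.47, 4.96 and 5.15 FPKM in Znf750_cKO libraries, against 9.61, 8.83 and 5.36 FPKM in Control libraries. The groups were apart, but Control replicate 3 lay just above the Znf750_cKO libraries while the other Control libraries were well above (log2 change -0.58, SE 0.20, limma adjusted p = 0.15). Without that library Scd1 fell, with a log2 change of -0.80 and a limma adjusted p of 0.049. This was the only 1 of 16 other settings in which Scd1 passed. Without replicate 3 of both groups its limma adjusted p was 0.051. Scd3, which in mouse skin is a sebaceous gland desaturase, had 0.30, 0.29 and 0.30 FPKM in Znf750_cKO libraries and 1.08, 0.75 and 0.81 FPKM in Control libraries. It was not tested in the fit, and its groups were apart by a ratio of means of 0.34 (exact two-sided permutation p = 0.10, the smallest possible). The 3 genes lie together on chromosome 19, and 2.58% of the 100-base windows of Scd1 transcripts, 2.49% of those of Scd3 and 0.88% of those of Scd2 also occur in another gene, and reads from there cannot be assigned to 1 gene by sequence.

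The desaturases of polyunsaturated chains were low. Fads1, the front-end desaturase that acts late in making arachidonate, had 2.39, 1.87 and 1.93 FPKM in Znf750_cKO libraries and 5.26, 2.94 and 2.77 FPKM in Control libraries. Its groups were apart, with Control replicate 1 higher than the others (log2 change -0.57, SE 0.22, limma adjusted p = 0.19). Fads2, which acts earlier in the same route, ranged from 0.60 to 0.80 FPKM in Znf750_cKO libraries and from 0.55 to 0.64 FPKM in Control libraries and was not tested in the fit (exact two-sided permutation p = 0.20). Fads3, a family member, had 0.20, 0.10 and 0.67 FPKM in Znf750_cKO libraries, against 1.27, 1.27 and 1.04 FPKM in Control libraries. The groups did not overlap, at a ratio of means of 0.27 (log2 change -0.75, SE 0.21, limma adjusted p = 0.097). Fads3 passed the filter on low values through the Control libraries alone, which already places its groups apart.

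Acyl-CoA synthetases activate free fatty acids, and their 4 tested members did not pass. Acsl1, the most abundant, had 47.9, 49.7 and 32.8 FPKM in Znf750_cKO libraries and 46.8, 53.4 and 52.4 FPKM in Control libraries, with overlapping groups (limma adjusted p = 0.44), and 8.45% of its 100-base windows are shared with Gm45244 on the opposite strand. Acsl3 (chr1:78657825-78707743, plus strand), which sits on nascent lipid droplets, had 21.5, 19.6 and 23.9 FPKM in Znf750_cKO libraries, against 16.5, 13.4 and 14.5 FPKM in Control libraries. All Znf750_cKO libraries were higher, at 1.46 times the Control mean (log2 change 0.52, SE 0.12, limma adjusted p = 0.059). Acsl3 rose under 2 of 3 other scalings, with limma adjusted p = 0.032 by median ratios and 0.042 by quantiles. An exon of Utp14b overlaps it on the same strand, and 2.43% of its 100-base windows are shared. Acsl5 averaged 35.2 ± 7.32 FPKM in Znf750_cKO and 41.7 ± 8.13 FPKM in Control, and Acsl4, which prefers arachidonate, averaged 9.14 ± 2.34 FPKM in Znf750_cKO and 7.71 ± 0.85 FPKM in Control (SD, n = 3 each), both with overlapping groups.

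In glycerolipid assembly 7 of 9 tested genes had a negative log2 change and none passed. The lowest ratios to Control were those of the acyltransferases of the final step, Dgat1 and Dgat2, which turn diacylglycerol into triglyceride. Dgat1 (chr15:76502015-76511953, minus strand) had 10.1, 11.7 and 9.21 FPKM in Znf750_cKO libraries and 14.2, 15.6 and 17.8 FPKM in Control libraries. The groups were apart, at 0.65 times the Control mean (log2 change -0.58, SE 0.13, limma adjusted p = 0.056). Dgat2 (chr7:99153658-99182719, minus strand), whose loss in mice is known to disturb the skin barrier, had 61.7, 62.1 and 54.5 FPKM in Znf750_cKO libraries and 76.9, 97.8 and 75.8 FPKM in Control libraries. Its groups were apart too, with Control replicate 2 above the other Control libraries, at 0.71 times the Control mean (log2 change -0.48, SE 0.13, limma adjusted p = 0.080). For neither gene did any of the 16 other settings tried give a limma adjusted p under 0.05 (lowest 0.056 for Dgat1 and 0.064 for Dgat2).

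None of the enzymes that precede them passed. Agpat3, an acyltransferase of lysophosphatidate and the most abundant of the step with Dgat2, had 59.5, 75.2 and 46.8 FPKM in Znf750_cKO libraries and 61.4, 73.2 and 78.1 FPKM in Control libraries, with overlapping groups (limma adjusted p = 0.49). Gpam, which adds the acyl chain that opens the route in mitochondria, averaged 7.32 ± 1.17 FPKM in Znf750_cKO and 8.75 ± 0.85 FPKM in Control (SD, n = 3 each). Agpat1 averaged 11.4 ± 0.76 FPKM in Znf750_cKO and 12.9 ± 1.05 FPKM in Control, groups that were apart by a narrow gap (log2 change -0.16, limma adjusted p = 0.47), and Agpat2 ranged from 6.30 to 7.43 FPKM in Znf750_cKO and from 6.77 to 8.98 FPKM in Control. The lipins, phosphatidate phosphatases that make diacylglycerol, had log2 changes of both signs, none past the threshold. Lpin1 and Lpin2 had log2 changes of 0.38 and 0.23, and Lpin3 had one of -0.18 (limma adjusted p = 0.33, 0.48 and 0.63). Without Znf750_cKO replicate 2 the log2 change of Lpin3 was 0.0029. Exons of genes on the opposite strand overlap those of Agpat1, Agpat2 and Agpat3 (Egfl8, Egfl7 and Gm40709), and likewise those of Mgll (Gm26588) and Srebf1 (Rai1). Only reads lying wholly within such an overlap could not be told apart, since the kit is not stated to mark strand. The share of 100-base windows also found in another gene was small. It was 0.0648% for Agpat1, 0.169% for Srebf1 and 0.0% for Agpat2, Agpat3 and Mgll.

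Plin2 fell. This perilipin coats droplets in most cell types, and it had 8.77, 9.86 and 5.56 FPKM in Znf750_cKO libraries, against 19.9, 15.4 and 16.2 FPKM in Control libraries. The highest Znf750_cKO library stayed well below the lowest Control library. Its mean was 8.06 ± 2.24 FPKM in Znf750_cKO and 17.2 ± 2.41 FPKM in Control (SD, n = 3 each), a ratio of 0.47 (log2 change -1.03, SE 0.20, limma adjusted p = 0.034). Plin2 (ENSMUSG00000028494) lies at chr4:86648386-86670060 on the minus strand of GRCm38, and 0.115% of the 100-base windows of its transcripts occur in those of another gene. The call was narrow and held in 6 of 16 other settings. The limma adjusted p was 0.0502 with the replicate number as a block, and between 0.087 and 0.11 without Znf750_cKO replicate 1, Control replicate 1, Control replicate 2 or Control replicate 3. The log2 change stayed between -1.17 and -0.81 in all 16 other settings.

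Plin3, the most abundant perilipin measured, had 29.2, 29.1 and 22.2 FPKM in Znf750_cKO libraries and 30.8, 25.6 and 34.2 FPKM in Control libraries, with overlapping groups (log2 change -0.17, limma adjusted p = 0.58). Without replicate 3 of both groups that log2 change was 0.05. Plin5, the perilipin of oxidative tissues, was listed at 0 in all 6 libraries.

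Markers of myeloid cells fell as well. Of 8 genes on the list of Langerhans and other myeloid cells, 7 were tested and 6 fell (Cd74, H2-Ab1, Csf1r, Tyrobp, Fcer1g and Ptprc), with log2 changes from -2.82 to -1.62. With the block 4 of them fell. The summed level of the list was 99.6 to 105 FPKM in Znf750_cKO libraries and 157 to 225 FPKM in Control libraries. Of this, Epcam, which keratinocytes also carry, gave 81.8 to 92.9 FPKM in Znf750_cKO and 83.3 to 92.8 FPKM in Control. Cd207, which marks mature Langerhans cells, was at or below 0.06 FPKM in every library. The part of these cells in the lower Plin2 level was not tested. All 3 erythroid markers tested had negative log2 changes, and Hba-a2 fell. The erythroid list summed to 6.92 to 11.1 FPKM in Znf750_cKO libraries and 19.6 to 52.7 FPKM in Control libraries. No marker of T cells, melanocytes, fibroblasts or endothelium passed. In RNA of a bulk suspension, fewer cells of a type and less RNA per cell cannot be told apart. Adipocyte markers gave almost no signal: Adipoq was at or below 0.08 FPKM and Cfd at or below 0.1 FPKM in all 6 libraries, and the 6 markers summed to 0.26 to 2.33 FPKM in Znf750_cKO and 0.63 to 0.92 FPKM in Control.

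The 3 lipases of the droplet had negative log2 changes and none passed. Mgll, which splits monoacylglycerol and is the most abundant of them, had 15.1, 17.6 and 18.5 FPKM in Znf750_cKO libraries and 23.0, 21.3 and 23.6 FPKM in Control libraries. All Znf750_cKO libraries were below all Control libraries, at 0.75 times the Control mean (log2 change -0.39, SE 0.11, limma adjusted p = 0.10). Lipe, the hormone-sensitive lipase that acts on diacylglycerol, had 6.40, 3.68 and 7.09 FPKM in Znf750_cKO libraries and 10.8, 12.4 and 8.53 FPKM in Control libraries. The groups were apart as well, at 0.54 times the Control mean (log2 change -0.81, SE 0.23, limma adjusted p = 0.097), but 7.14% of the 100-base windows of Lipe transcripts are shared with 4732471J01Rik on the opposite strand. Pnpla2, the triglyceride lipase that starts the chain, averaged 9.30 ± 0.66 FPKM in Znf750_cKO and 10.6 ± 1.69 FPKM in Control (SD, n = 3 each), with overlapping groups. Summed, the lipases stood at 31.4, 29.9 and 35.0 FPKM in Znf750_cKO libraries and at 45.5, 45.0 and 40.8 FPKM in Control libraries.

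**Figure D3:**
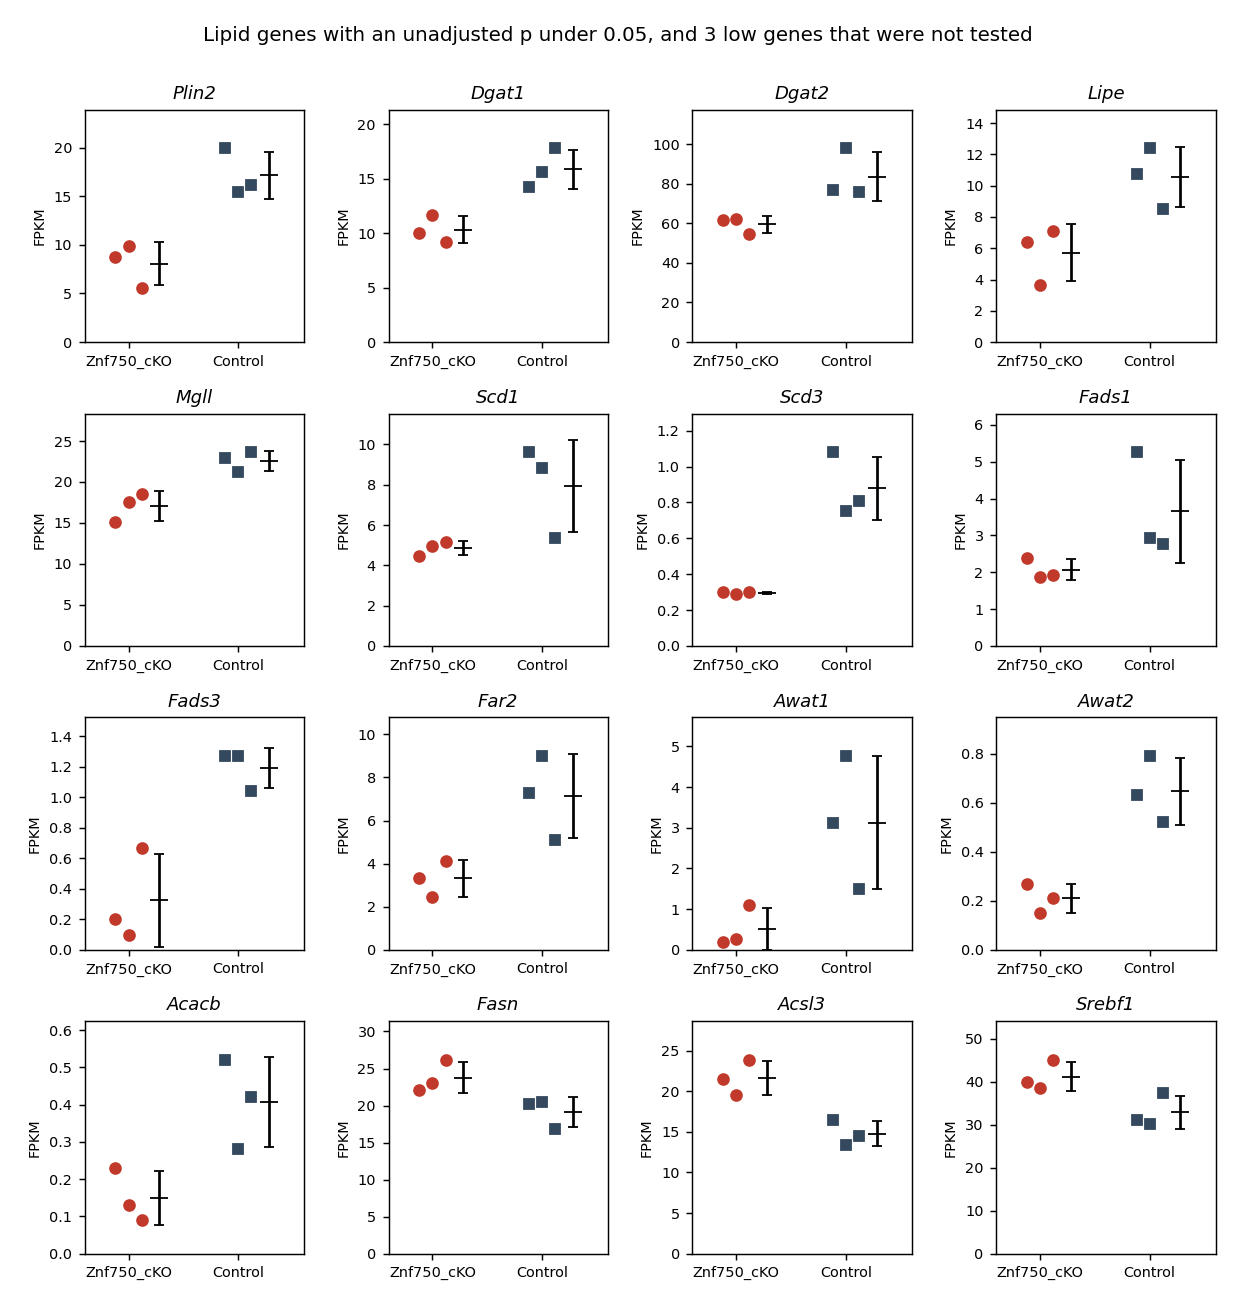
FPKM by library (axes from 0) for the 13 lipid genes with an unadjusted p under 0.05 and for Scd3, Awat2 and Acacb, which were not tested, with the mean and SD beside each group, Znf750_cKO on the left. In the last row Fasn, Acsl3 and Srebf1 are higher in every Znf750_cKO library, and the other 13 genes are lower in every one. The genes were picked by these same values, so their separation is not support for a shared change. Over all tested genes, Znf750_cKO lay below Control without overlap in 19.7% and above it in 8.28%.

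Wax ester synthesis had the lowest median log2 change of the steps, -1.16 over its 2 tested genes, and the lowest summed FPKM. The sum of its 3 genes averaged 4.04 ± 1.31 FPKM in Znf750_cKO and 10.9 ± 3.72 FPKM in Control (SD, n = 3 each). Far2 (chr6:148047259-148182758, plus strand), which reduces fatty acyl-CoA to fatty alcohol, had 3.33, 2.46 and 4.14 FPKM in Znf750_cKO libraries, against 7.26, 8.99 and 5.10 FPKM in Control libraries. The groups were apart, at 0.47 times the Control mean (log2 change -0.90, SE 0.22, limma adjusted p = 0.065), with 9.08% of the 100-base windows of Far2 transcripts shared, mainly with Ergic2 on the opposite strand. Awat1 (chrX:100572251-100578205, plus strand), an acyltransferase that joins fatty alcohol and fatty acid, had 0.18, 0.26 and 1.11 FPKM in Znf750_cKO libraries and 3.11, 4.76 and 1.49 FPKM in Control libraries. Those values correspond to an estimated 8, 9 and 33 reads in Znf750_cKO and 114, 132 and 45 reads in Control. Replicate 3 of Znf750_cKO was the highest of its group and replicate 3 of Control the lowest of its own, so the groups came close without overlapping (log2 change -1.41, SE 0.35, limma adjusted p = 0.071). Awat2, a related gene on the X chromosome with the same kind of activity, had 0.27, 0.15 and 0.21 FPKM in Znf750_cKO libraries and 0.63, 0.79 and 0.52 FPKM in Control libraries and was not tested in the fit (exact two-sided permutation p = 0.10, the smallest possible). Without replicate 3 of both groups, Awat1 and Far2 fell (log2 changes -1.997 and -1.23, limma adjusted p = 0.010 and 0.029). Awat1 also fell without Control replicate 3 (limma adjusted p = 0.047). Of 16 other settings, Awat1 passed in these 2 and Far2 in 1. With the block the limma adjusted p was 0.13 for Awat1 and 0.12 for Far2.

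Genes of the sebaceous gland and its duct were read in the same libraries. On the list of 6 sebocyte markers, 2 were tested and 1 fell: Krt79, a keratin of the upper hair follicle and the sebaceous duct, averaged 132 ± 13.9 FPKM in Znf750_cKO and 348 ± 95.8 FPKM in Control (SD, n = 3 each; log2 change -1.35, limma adjusted p = 0.020). The other tested marker, Mgst1, averaged 29.4 ± 9.18 FPKM in Znf750_cKO and 22.0 ± 7.38 FPKM in Control (SD, n = 3 each), with overlapping groups and a log2 change of the opposite sign (0.40, limma adjusted p = 0.51). The summed level of the list was 148 to 188 FPKM in Znf750_cKO libraries and 255 to 438 FPKM in Control libraries, nearly all of it Krt79 and Mgst1. Elovl3, a sebocyte elongase, stood at 0.03, 0.00 and 0.15 FPKM in Znf750_cKO and at 1.09, 2.17 and 0.17 FPKM in Control. Mc5r, the melanocortin receptor of sebocytes, was between 0.02 and 0.42 FPKM in every library. Control replicate 3 was the lowest Control library for 5 of the 6 markers (all but Mc5r), as it was for Scd1, Far2, Awat1 and Awat2. The pattern was not particular to these genes. Cd74, Csf1r, Tyrobp, Fcer1g and Epcam of the myeloid list shared it, and H2-Ab1, Ptprc and Cd207 did not. Of other lipid genes, Lipe, Pnpla2, Fasn, Acly, Fads1, Fads2, Fads3, Acsl4, Acsl5, Lpin3 and Dgat2 were also lowest in that Control library. Plin5 aside, the remaining lipid genes were not, among them Dgat1, Mgll and Plin2. How often this occurs over all tested genes was not counted. Relative to the Control mean, Control replicate 3 stood at 68.4% for Krt79, 14.9% for Elovl3, 67.6% for Scd1 and 47.8% for Awat1. The part of sebaceous cells in the levels of the wax ester and desaturase genes was not tested.

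**Figure D4:**
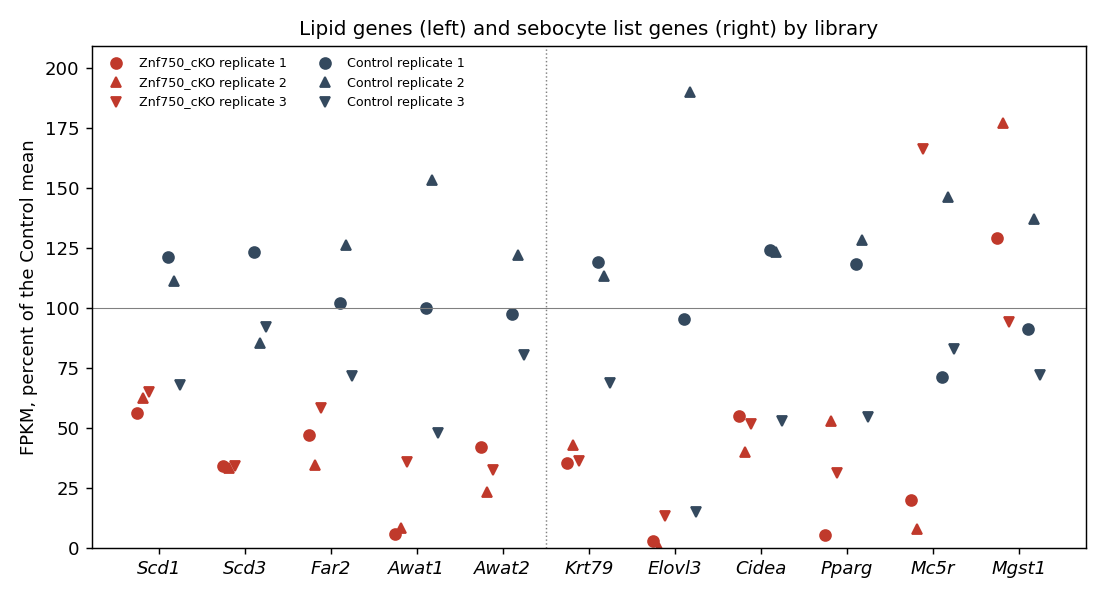
FPKM of 5 lipid genes and of the 6 genes of the sebocyte marker list as a percent of the Control mean, by library, with Znf750_cKO to the left of Control for each gene and symbols for the replicate number. Control replicate 3 is the lowest Control library for every gene shown but Scd3 and Mc5r, and the groups overlap for Cidea, Mc5r and Mgst1.

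Of the transcription factors that drive these genes, Srebf1, the sterol-regulated activator of fatty acid synthesis, had 39.9, 38.6 and 45.1 FPKM in Znf750_cKO libraries and 31.2, 30.1 and 37.3 FPKM in Control libraries. Every Znf750_cKO library was above every Control library, with replicate 3 the highest in both groups (log2 change 0.32, SE 0.12, limma adjusted p = 0.17, and 0.086 with the block). Mlxipl, the carbohydrate-responsive activator, was between 0.05 and 0.46 FPKM in Znf750_cKO libraries and between 0.15 and 0.21 FPKM in Control libraries, with overlapping groups. Srebf1 and its known targets Fasn and Scd1 had log2 changes of 0.32, 0.30 and -0.58, none past the threshold. The other tested genes of fatty acid synthesis and desaturation also had both signs. Acly, Acaca, Scd2, Fads1 and Fads3 had log2 changes of -0.02, 0.03, 0.12, -0.57 and -0.75.

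Other genes of the same routes were read from a list of 74, of which 58 were tested, 3 fell, 0 rose and 55 did not pass. The called share, 5.17%, lies near the 4.22% of all tested genes. Their median log2 change was -0.26, and 47 of the 58 were below 0, beside a median of -0.08 and 62.2% below 0 over all tested genes. Acsl6 and Acss2 entered through the Control libraries alone, so these counts describe the genes and are not support for a shared change. Acsl6, a synthetase best known from brain, fell to 0.26, 0.34 and 0.19 FPKM in Znf750_cKO libraries, against 1.34, 2.78 and 2.46 FPKM in Control libraries (log2 change -1.31, SE 0.22, limma adjusted p = 0.021), and it passed the filter on low values through the Control libraries alone. Acot2, a mitochondrial thioesterase, fell to 3.58, 4.13 and 2.54 FPKM in Znf750_cKO libraries, against 6.85, 6.31 and 6.64 FPKM in Control libraries (log2 change -0.80, SE 0.17, limma adjusted p = 0.041, and 0.062 with the block). It shares 17.1% of its 100-base windows with other genes, mainly its neighbour Acot1, so the levels of this pair are uncertain one by one. Acadl, the long-chain acyl-CoA dehydrogenase, fell to 13.5, 15.1 and 13.2 FPKM in Znf750_cKO libraries, against 23.3, 21.8 and 19.4 FPKM in Control libraries (log2 change -0.59, SE 0.11, limma adjusted p = 0.033). In the fits that left out 1 library, Acsl6 lost its call without Znf750_cKO replicate 1 or 3 or Control replicate 2 or 3 (limma adjusted p from 0.053 to 0.091). Acot2 and Acadl lost theirs without any library but Znf750_cKO replicate 2 (0.067 to 0.13 for Acot2, 0.057 to 0.13 for Acadl), and without replicate 3 of both groups none of the 3 genes passed. With quantile normalization none of the 3 passed, and with median-ratio scaling Acsl6 alone did. Acsbg1, an acyl-CoA synthetase of the bubblegum family, averaged 77.4 ± 15.8 FPKM in Znf750_cKO and 122 ± 20.5 FPKM in Control (SD, n = 3 each; limma adjusted p = 0.082) and passed with the block (0.036).

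Genes of fatty acid oxidation, the route opposite to synthesis, had mostly negative log2 changes, and 1 of them passed. Of 22 such genes 21 were tested, 1 fell (Acadl) and 20 did not pass. The called share, 4.76%, lies near the 4.22% of all tested genes. The log2 change was below 0 for 20 of the 21 (median -0.30), where 62.2% of all tested genes were below 0. The groups did not overlap in 11 of the 21 (52.4%, with Znf750_cKO lower in each), against 28% of all tested genes. Acaa2, a thiolase of the last step of the cycle and the most abundant gene of the list, had 103, 121 and 79.1 FPKM in Znf750_cKO libraries and 142, 135 and 125 FPKM in Control libraries (log2 change -0.42, limma adjusted p = 0.17). Its groups were apart, as were those of Cpt1a, the carnitine acyltransferase that controls entry of fatty acids into mitochondria (log2 change -0.68, limma adjusted p = 0.12), and of Decr1 (log2 change -0.86, limma adjusted p = 0.086). Summed over the 22 genes, FPKM came to 791, 889 and 626 in Znf750_cKO libraries and to 989, 982 and 884 in Control libraries, so that Znf750_cKO replicate 2 overlapped the lowest Control library and replicate 3 lay lowest.

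**Figure D5:**
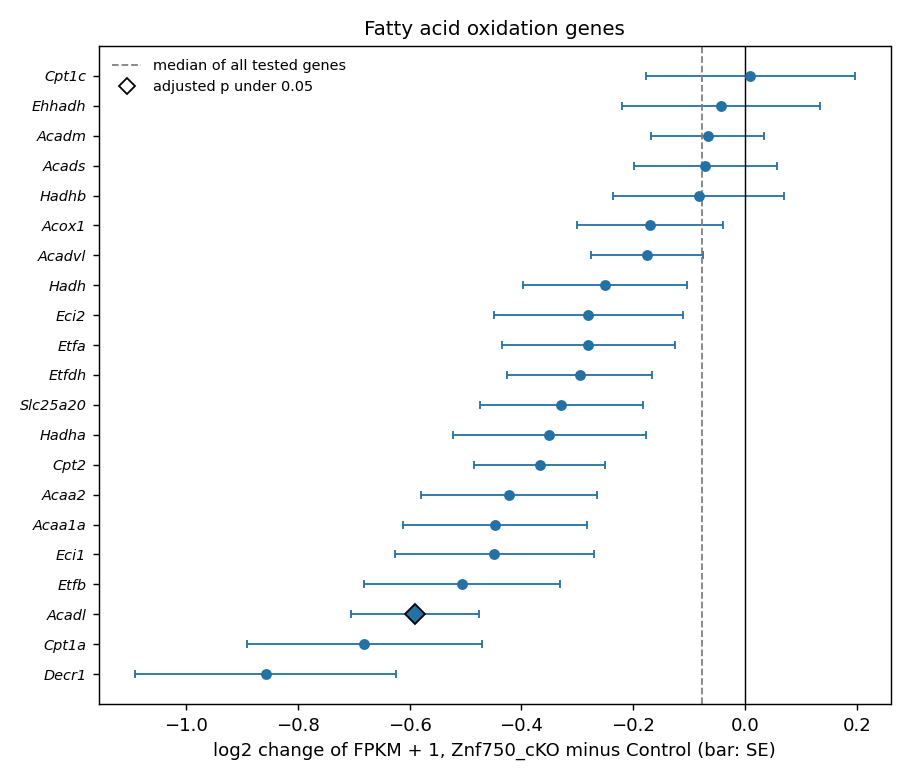
Log2 change of FPKM + 1 (Znf750_cKO minus Control) for the 21 tested genes of fatty acid oxidation, ordered by size, with bars of 1 SE. The diamond marks Acadl at -0.59, and Cpt1c, at 0.01, is the gene with a positive value.

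The most abundant genes of the other roles did not pass. Slc25a1, the citrate carrier, averaged 29.3 ± 5.09 FPKM in Znf750_cKO and 26.4 ± 1.14 FPKM in Control. Dbi, an acyl-CoA binding protein, averaged 559 ± 121 FPKM in Znf750_cKO and 355 ± 112 FPKM in Control (log2 change 0.69, limma adjusted p = 0.22). Its groups were apart by a narrow gap, with 455 FPKM the lowest Znf750_cKO value and 450 FPKM the highest Control value. Agpat5, a further lysophosphatidate acyltransferase, averaged 35.2 ± 2.24 FPKM in Znf750_cKO and 47.3 ± 12.3 FPKM in Control, with Znf750_cKO below Control in every library (log2 change -0.39, limma adjusted p = 0.24). Rab18, a GTPase found on droplets, averaged 83.9 ± 2.24 FPKM in Znf750_cKO and 71.1 ± 4.38 FPKM in Control, also with groups that were apart (log2 change 0.24, limma adjusted p = 0.19). Abhd5, the coactivator of Pnpla2 whose loss in humans causes ichthyosis with neutral lipid storage, averaged 45.5 ± 1.28 FPKM in Znf750_cKO and 46.0 ± 4.14 FPKM in Control. Far1, the reductase paralogous to Far2, averaged 13.0 ± 2.72 FPKM in Znf750_cKO and 14.9 ± 0.77 FPKM in Control, and Nr1h2, an oxysterol receptor, averaged 43.1 ± 2.87 FPKM in Znf750_cKO and 44.0 ± 6.26 FPKM in Control (SD, n = 3 each).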

How the data were processed

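Poly(A) RNA of 6 epidermal libraries was sequenced as single reads of 100 nucleotides, per the labels' protocols. The authors deposited FPKM values, per the file headers, 1 for each of 55487 Ensembl genes per library. Per the submitters' processing notes, STAR 2.5.2a and RSEM 1.2.28 are among the tools and GRCm38 and mm10 the builds; which step each did, and the annotation release, are not stated there. If RSEM made the values, it divides reads that match several genes.

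Log2(FPKM + 1) was fitted with limma 3.58.1 (R 4.3.3, statmod 1.5.0; intensity trend, robust variances), comparing the 2 groups and nothing else. Genes that reached 1 FPKM in 3 or more libraries entered, and p-values were adjusted by Benjamini-Hochberg over all 13688 at a threshold of 0.05. Fold changes on this scale understate those of low genes. The fit was tried on simulated data with residuals independent between libraries, which leave out the shared deviations of like-numbered libraries described below. Symbols were matched for 55141 identifiers, and 99.5% of identifiers are in GENCODE M21 (GRCm38), which gave coordinates, overlaps and the transcripts searched for shared windows of 100 bases. Plots used Python 3.11.15 and matplotlib 3.10.9.

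FPKM files state no depth, and precision rests on the 3 libraries per group. For genes with 1 transcript, FPKM times transcript length less 99 bases was searched for a common step. Between 59.9% and 74.7% of low values per library lay within 0.1 read of a whole number, where values spread evenly would give 20%. The step was chosen to fit these same values, so that share is not a separate check. The depths are estimates and entered no test.

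Like-numbered libraries of the groups deviated together (correlations of residuals 0.306, 0.165 and 0.477 across genes for numbers 1, 2 and 3). Of the 6 unlike-numbered pairs, Znf750_cKO 2 and Control 1 correlated at 0.24, above like-numbered pair 2, and the other 5 lay between -0.389 and -0.042. The number was therefore also entered as a block; this pairing is read from the values, and what a number marks is not given in the labels.

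Genes given in every library are those with an adjusted or unadjusted p under 0.05 and the most abundant of each step. From the wider list, genes past the adjusted threshold and the most abundant of each role are named. Acsbg1, Cpt1a, Decr1, Scd3, Acacb and Awat2 were singled out after their values were seen. The genes, steps, lists and tests were chosen with earlier results of these data known. The alternatives tried were other added values, filters, scalings, variance models, the block and left-out libraries.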

Additional observations from a re-analysis of the deposited data

How the results depend on the processing

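The log2 changes of 28 tested lipid genes were recomputed under 16 alternatives. Zfp750 passed in all of them (log2 change -4.99 to -4.05). Over all tested genes, 577 calls compared with 85 without a filter on low values (35621 genes tested) and 382 with a mean FPKM of at least 0.5, and leaving out 1 library gave 100 to 356. Among the lipid genes, 1 call compared with 0 without the filter, 0 with the mean filter, 0 without trend and robust variances, 0 with the replicate block (Plin2 at an adjusted p of 0.0502), 2 with median-ratio scaling (Acsl3 and Plin2), 2 without replicate 3 of both groups (Far2 and Awat1), and 0 to 2 when 1 library was left out. With quantile normalization the single call was Acsl3 in place of Plin2. In the wider list, 3 calls compared with 0 without the filter, 1 with median-ratio scaling, 0 with quantile normalization, 0 without replicate 3 of both groups, and 0 to 3 when 1 library was left out. The block left 3 calls there too, with Acsbg1 in place of Acot2.

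Log2 changes near 0 turned sign. Acly (-0.02) stood at 0.067 with median-ratio scaling, 0.0034 with quantile normalization and 0.023 without replicate 3 of both groups, and between -0.060 and 0.033 when 1 library was left out. Over those left-out libraries Acaca (0.03) ranged from -0.078 to 0.18 and Lpin3 (-0.18) from -0.30 to 0.0029. Plin3 (-0.17) stood at 0.050 without replicate 3 of both groups. The cause was not tested. Precision is limited by the 3 libraries of each group, and genes under 1 FPKM rest on few reads.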
